A study of Arabidopsis thaliana with 12 samples.

Results

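The heat response described here is that of Arabidopsis thaliana seedlings of the hop1 hop2 hop3 triple mutant, which carries mutations in all members of the HOP family. HOP proteins (Hsp70-Hsp90 organizing proteins) are co-chaperones that bind HSP70 and HSP90 together and pass client proteins from one to the other. Of the 12 RNA-seq libraries of the series, 6 were used for it: 3 from mutant seedlings that spent the last 3 h at 38 °C and 3 from mutant seedlings under control conditions. The other 6 libraries are wild-type (wt) seedlings, named Col-0 in their titles, with the same treatments. They entered the filter on low values, the shared estimate of the spread, a sorting of genes by their level before heat and the test of the difference between genotypes. All seedlings were 7 days old and were taken whole. Mutant alleles, the background of the mutant and the control temperature are not given in the sources used here. Nothing in the labels says that the 3 libraries of a group came from separate cultures, so the p-values measure the spread between these libraries, which may be technical.

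When a plant cell is heated, proteins unfold and chaperones are drawn away from the heat shock factors (HSFs) that they hold inactive. The freed factors bind heat shock elements in promoters and switch on genes for small heat shock proteins, HSP70, HSP90, HSP100 and their helpers. Growth, cell division and immune signalling are usually turned down during the same period. In Arabidopsis the HSFA1 factors start the response, and HSFA2, MBF1C and DREB2A are induced regulators that widen and prolong it.

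The HOP transcripts themselves differed in how far they went with the genotype label. HOP2 stood at 7.68, 6.36 and 7.15 normalized counts in the 3 hop control libraries, against 483, 635 and 548 in the wt controls. HOP3 stood at 9.39, 4.24 and 0 in the hop controls, against 78.5, 88.5 and 75.2 in wt. HOP1 stood at 554, 557 and 676 in the hop controls and at 538, 726 and 684 in wt, so its level overlapped between the genotypes. "Hop" below therefore means the libraries labelled hop1 hop2 hop3. The counts cover each gene's whole annotated length and do not show whether a transcript is intact.

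Heat raised all 3 HOP transcripts in hop seedlings. HOP1 reached 2250.0, 1654 and 2299 in the heat libraries, a log2 fold change of 1.79 ± 0.16 (SE; limma, adjusted p = 8.29e-08). HOP2 reached 5128, 4046 and 4979.7, a change of 9.19 ± 0.12 (limma, adjusted p = 2.56e-17), and HOP3 reached 1254, 1216 and 1346, a change of 8.39 ± 0.69 (limma, adjusted p = 3.35e-06). For all 3 genes every heat library lay above every control library. In heated wt the HOP2 mean was 8002 ± 657 (SD, n = 3) and the HOP3 mean 111381 ± 19304. The heated hop libraries held less, with 4718 ± 587 of HOP2 and 1272 ± 66.8 of HOP3. HOP1 went the other way, since the heated wt libraries, at 1359, 991 and 1298, lay below every heated hop library. Heated hop against heated wt was not tested. HOP2 overlaps CPEFG by 110 bases and HOP3 overlaps PME1 by 163 bases on the opposite strand in the RefSeq annotation.

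Across the genome the response was broad in both directions. Of 32833 genes in the deposited table, 23827 had a value of at least 1 in 3 or more libraries and were tested, and 16326 of them (68.5%) changed at an adjusted p under 0.05. Among those, 7929 genes (33.3% of the genes tested) were higher in heat and 8397 (35.2%) were lower. With a log2 fold change of at least 1 added, 9627 genes (40.4%) remained, of which 4318 (18.1%) were higher and 5309 (22.3%) lower. All 3 heat libraries lay above or below all 3 control libraries for 16786 genes (70.4%). Fold changes are on the scale of log2(normalized count + 1), so the change of genes with few counts is understated. In whole seedlings, fewer cells of a type and less RNA per cell cannot be told apart.

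Large rises outnumbered large falls on this scale. Higher by at least 5 on the log2 scale, a 32-fold change, were 304 genes, and lower by as much were 40. At 3 log2 units the counts were 965 higher and 557 lower, and 28 genes rose by 10 or more. A fall is bounded by the level before heat and a rise is not, so these counts do not compare the directions evenly. Of the changes of at least 5, genes with a wt control mean below 1 held 65 rises and 0 falls. Those from 1 to 10 held 83 rises and 0 falls, and those from 1000 to 10000 held 7 rises and 10 falls. The median gene changed by -0.06, and 80% of all genes lay between the 10th and 90th percentiles of -1.8 and 1.7. As a scale for these changes, the median SD between replicates of genes with a mean of at least 100 was 0.13 log2 units in control and 0.15 in heat.

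The direction of small changes rests on how the libraries are scaled. The deposited values were divided by size factors, which put the median gene near no change. Scaled by library size alone, the median gene fell by 0.91 log2 units, with 3125 genes higher and 14749 lower, so that 17.5% of calls were higher instead of 48.6%. Rises of that size are therefore rises relative to the median gene, and where the median of a group of genes below changes sign on library-size scaling, or a named rise loses its call, that value is given. The transcript pool became more concentrated in heat. The 100 most abundant genes took 41.9, 41.0 and 37.5% of all fragments in the control libraries and 48.4, 50.7 and 45.4% in the heat libraries, and 59 of the top 100 genes by mean share were common to both groups. Fragments from 222, 244 and 333 genes made up 50% of the control libraries, against 112, 95 and 139 genes in heat. Among the 10 most abundant genes in heat were 3 heat shock genes, HSP70-4, HSP90.1 and HSP17.6C, with 1.48, 1.18 and 1.15% of the fragments. The others were 4 rRNA genes, the antenna gene LHCB1.3 and the Rubisco genes RBCS-1A and RCA, which were also among the 10 most abundant in control. These shares are not per length, so they do not rank the genes by transcript number.

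**Figure D1:**
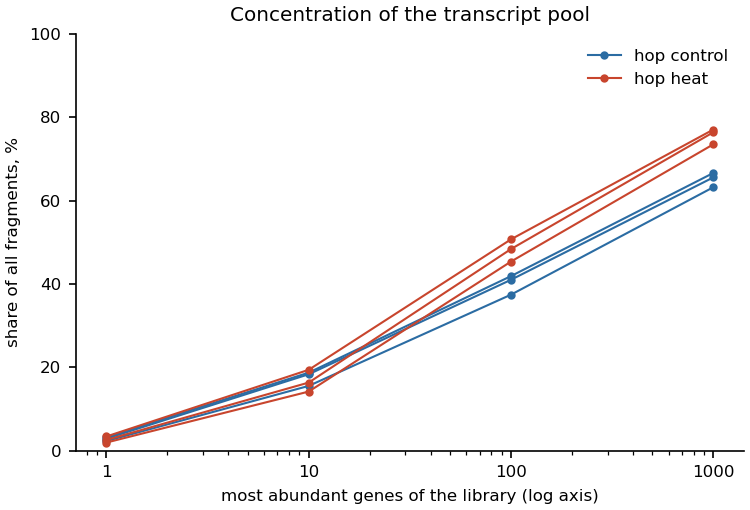
Share of all fragments (y axis, %) taken by the 1, 10, 100 and 1000 most abundant genes of each library (x axis, log scale); each line is 1 of the 3 hop control (blue) or 3 hop heat (red) libraries. The curves overlap at 10 genes and separate from 100 genes on, where heat libraries hold 45.4 to 50.7% and controls 37.5 to 41.9%.

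The first principal component of the 6 libraries separated heat from control and held 87.5% of the variance. The second held 4.21% and was set mainly by heat replicates 2 and 3, at 41.4 and -47.0. Ribosomal RNA genes (2 nuclear genes and the 2 chloroplast 23S genes) took 8.06, 11.5 and 6.17% of the fragments of heat replicates 1 to 3 and 9.71, 9.43 and 7.12% of the controls. Within each treatment the libraries have the same order on both measures, and the part of rRNA in the results was not tested. Library depth was 28663907, 33300543 and 33849014 fragments in control and 35126626, 32112317 and 38722218 in heat. Control replicate 3 stood apart for a set of auxin and ethylene genes, as given beside them.

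Small heat shock proteins, the ATP-independent chaperones that hold unfolded proteins until they can be refolded, carried the largest changes. All 19 tested members were higher (33.3% of all genes were), with a median log2 fold change of 13.11 beside -0.06 for all genes. HSP21, the chloroplast member, stood at 14.5, 0.707 and 1.95 normalized counts in the control libraries and at 119002, 107697 and 153891 in heat. Its log2 fold change was 14.84 ± 0.66 (SE; limma, adjusted p = 3.89e-08). The heat libraries lay far above all controls, of which replicate 1 was the highest. HSP17.6C, a cytosolic class I member, stood at 57.2, 26.2 and 14.9 in control and at 508753, 501919 and 513673 in heat, a change of 14.08. HSP23.6 of mitochondria and HSP22.0 of the endoplasmic reticulum changed by 14.72 and 14.63. HSP17.4, of class I, stood at 52.1, 20.5 and 20.1 in control and at 344934, 344611 and 319356 in heat, so that control replicate 1 was again the highest of its group. HSP17.6 and HSP17.7 of class II and HSP18.2 and HSP17.8 of class I changed by 14.27, 13.91, 13.54 and 13.52. Not every member was strongly induced: HSP14.7 changed by 1.27, and HSP15.4 and HSP21.7 by 0.71 and 0.60. On library-size scaling 16 of the 19 were higher, with HSP14.7 at 0.42 (limma, adjusted p = 0.286) and HSP15.4 and HSP21.7 at -0.21 and -0.31.

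Windows of 250 bases upstream of each annotated start were searched for the heat shock element GAANNTTC and for a longer 3-unit form, which adds NNGAA at its 3′ end or TTCNN at its 5′ end, on both strands. These letters were chosen because HSFs bind inverted repeats of GAA. The element occurred in 9.42% of the 23558 windows of tested genes and in 14.6% of those of genes higher by at least 3. The share was no larger at 5 or more, at 14.3% of 265 windows, and 9 of 28 windows (32.1%) held it at 10 or more. The 3-unit form occurred in 0.442% of all windows, in 2.63% at 3 or more, in 3.77% at 5 or more and in 5 of 28 (17.9%) at 10 or more. Among genes lower by at least 3, the 3-unit form was in 0 of 557 windows and the shorter element in 8.62%. The 5 genes of the steepest class with a 3-unit match encode 2 small heat shock proteins, a J-domain protein and 2 heat shock factors, and their sequences are shown because those genes lead the response. Coordinates and letters are those of RefSeq TAIR10.1, read 5′ to 3′ on the gene's strand, with the matched bases in capitals.

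HSP17.4, chr3:16984868-16984981, minus strand, bases -114 to -1 from the start: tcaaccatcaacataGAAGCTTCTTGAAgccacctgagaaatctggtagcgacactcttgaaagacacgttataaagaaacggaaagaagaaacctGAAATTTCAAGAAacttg
AT1G71000, chr1:26770260-26770339, minus strand, bases -162 to -83: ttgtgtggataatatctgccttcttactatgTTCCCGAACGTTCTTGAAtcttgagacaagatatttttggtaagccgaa
HSP17.6C, chr1:19980212-19980291, plus strand, bases -87 to -8: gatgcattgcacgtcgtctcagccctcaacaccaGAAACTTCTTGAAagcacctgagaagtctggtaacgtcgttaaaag
HSFA2, chr2:11135502-11135581, plus strand, bases -122 to -43: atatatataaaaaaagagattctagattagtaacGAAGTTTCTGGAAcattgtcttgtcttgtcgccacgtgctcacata
HSFA7B, chr3:23399045-23399124, plus strand, bases -191 to -112: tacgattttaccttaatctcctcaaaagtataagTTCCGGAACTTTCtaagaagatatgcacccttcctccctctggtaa

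HSP17.4 and AT1G71000 each hold 2 matches, which in AT1G71000 overlap each other and in HSP17.4 lie at both ends of the stretch. HSP21 and APX2 hold the shorter element in their windows, at 1 site each, and they are shown as the steepest rises with only that form.

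HSP21, chr4:13820028-13820107, minus strand, bases -136 to -57: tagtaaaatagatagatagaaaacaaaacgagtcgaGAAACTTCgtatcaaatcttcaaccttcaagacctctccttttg
APX2, chr3:2956059-2956138, plus strand, bases -97 to -18: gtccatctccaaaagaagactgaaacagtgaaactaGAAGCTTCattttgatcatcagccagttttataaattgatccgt

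HSP26.5 and AT3G07365 complete the 9 of the steepest class, with 1 shorter element each. The stretch of AT3G07365 with its element (chr3:16984255-16984334) lies within the HSP17.4 gene (chr3:16984118-16984867). These 2 of the 9 windows therefore belong to the same locus. No exact match lay in the windows of HSP23.6, HSP22.0, HSP101, HSP70-4 and HSP90.1, of the same class, which says only that these letters are not in those windows. The G-box CACGTG, bound by basic helix-loop-helix and bZIP factors, was in 7.06% of all windows, 12.1% of those of genes higher by at least 5 and 6.0% of those of genes called lower. A match is a description of letters and not of a bound site.

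**Figure D2:**
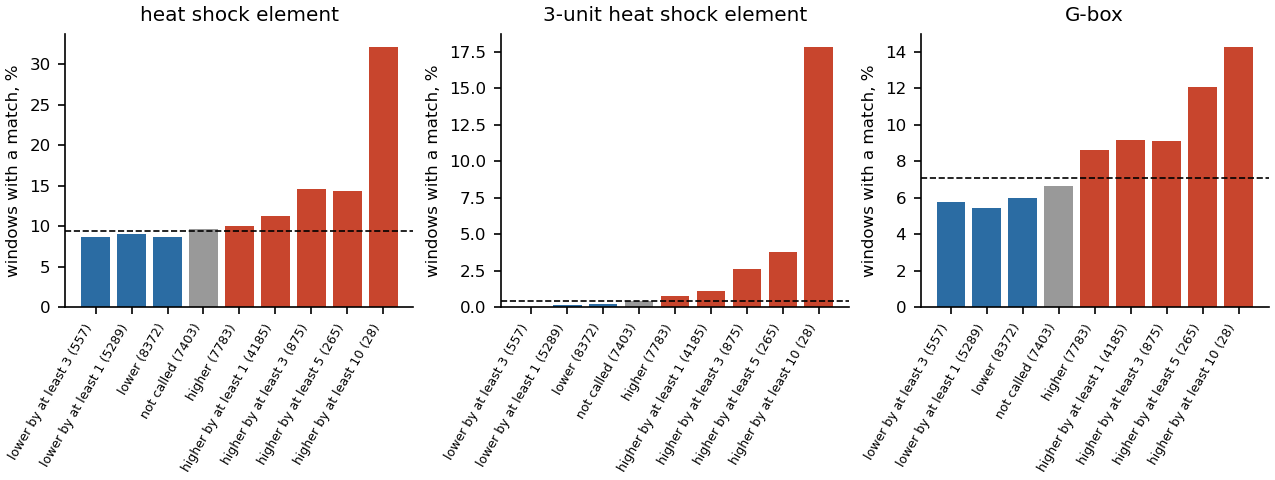
Share of the windows of 250 bases before the gene start (y axis, %) that hold each motif, for genes grouped by the heat response in hop seedlings (x axis, with the number of windows; log2 units). Blue bars are genes called lower, the grey bar genes not called, red bars genes called higher, and the dashed line all genes tested; the 3-unit heat shock element goes from 0 of 557 windows at the left to 17.9% of 28 windows at the right.

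AT3G07365, a non-coding gene, overlaps HSP17.4 by 453 bases on the opposite strand. It was at 0 in all control libraries and at 5919, 5649 and 5974 in heat, at least 7934-fold higher than the value of 3 fragments over the control group. In the 3 heat libraries its fragments came to 1.72, 1.64 and 1.87% of the fragments counted for HSP17.4. The library kit keeps strand, but the strand setting of the counting is not given in the sources used here, so reads of both genes may not be fully separated.

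The HSP70 family, ATP-driven folding chaperones, had 16 of 17 members higher and 1 lower, with a median change of 4.10. HSP70-4, a cytosolic member, stood at 412, 374 and 343 in control and at 696678, 781743 and 509082 in heat, a change of 10.76 ± 0.17 (limma, adjusted p = 3.73e-16). HSP70b rose by 11.94 and HSP70T-2 by 9.83, while the constitutive HSC70-1 rose by 2.48. Mitochondrial HSP70-10 rose by 7.3, and the chloroplast members HSP70-6 and HSP70-7 rose by 3.55 and 3.19. BIP1 and BIP2 of the endoplasmic reticulum rose by 4.10 and 2.98. BIP3, the third and stress-inducible member of that compartment, was the 1 that fell, from 10.2, 42.4 and 40.3 to 2.65, 10.2 and 2.06. In BIP3 the highest heat library almost met the lowest control.

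All 11 tested members of the HSP90 and HSP100 list, which also holds HSA32 of neither family, rose, with a median of 6.79. HSP90 matures client proteins such as receptors and kinases, and HSP100 pulls proteins out of aggregates. HSP90.1, the heat-induced cytosolic HSP90, stood at 195, 226 and 190.4 in control and at 547411, 577401 and 452742 in heat, a change of 11.32 ± 0.12 (limma, adjusted p = 2.33e-18). HSP101 went from 108, 95.5 and 87.1 to 350658, 370679.9 and 237014, a change of 11.65. Heat replicate 3 was the lowest of the heat libraries for HSP70-4, HSP90.1 and HSP101 and the highest for HSP21. The other cytosolic HSP90 genes rose by 7.20 (HSP90-2), 4.38 (HSP90-3) and 2.93 (HSP90-4). Organelle members followed, with CLPB3 of chloroplasts at 6.89, CLPB4 of mitochondria at 6.79, Hsp89.1 at 4.66, CR88 at 2.66 and SHD of the endoplasmic reticulum at 1.3. On library-size scaling SHD was at 0.38 (limma, adjusted p = 0.192), which left 10 of the 11 higher. HSA32, needed in Arabidopsis for long-lasting acquired thermotolerance, rose by 7.51.

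Co-chaperones were split. Of 25 tested, 18 were higher and 6 lower, with a median of 3.97. ROF2, an FKBP-type immunophilin that binds HSP90, stood at 82.8, 74.3 and 82.5 in control and at 227201, 196090.2 and 262508 in heat, a change of 11.46. BAG6 rose by 9.13, Fes1A, an HSP70 nucleotide exchange factor, by 8.75, and ERDJ3A, an endoplasmic reticulum J-domain protein, by 7.99. ROF1, SGT1A, TPR10 and ATJ3 rose by 6.10, 5.58, 5.49 and 4.43. The 6 that fell were TTL1 (-1.42), BAG1 (-1.26), BAG7 (-0.96), Fes1B (-0.83), Fes1C (-0.74) and TDX (-0.71). Within the BAG and Fes1 families some members therefore rose while others fell. Each of these falls was also a fall on library-size scaling, but that scaling lowers the median gene further, so it is no test of them. J-domain proteins as a whole, 94 tested, were near the background, with 35 higher and 41 lower. AT1G71000, of this family, went from 1.71, 1.41 and 0.650 to 5881, 6925 and 6059, and AT2G17880 went the other way, from 1166, 1204 and 1240.1 to 42.4, 36.3 and 52.6. Organellar chaperonins, the barrel-shaped folding machines of chloroplasts and mitochondria, had 10 of 11 higher and 0 lower, with CPN60B2 up by 5.89, CPN60 by 5.52 and CPN10 by 3.90.

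**Figure D3:**
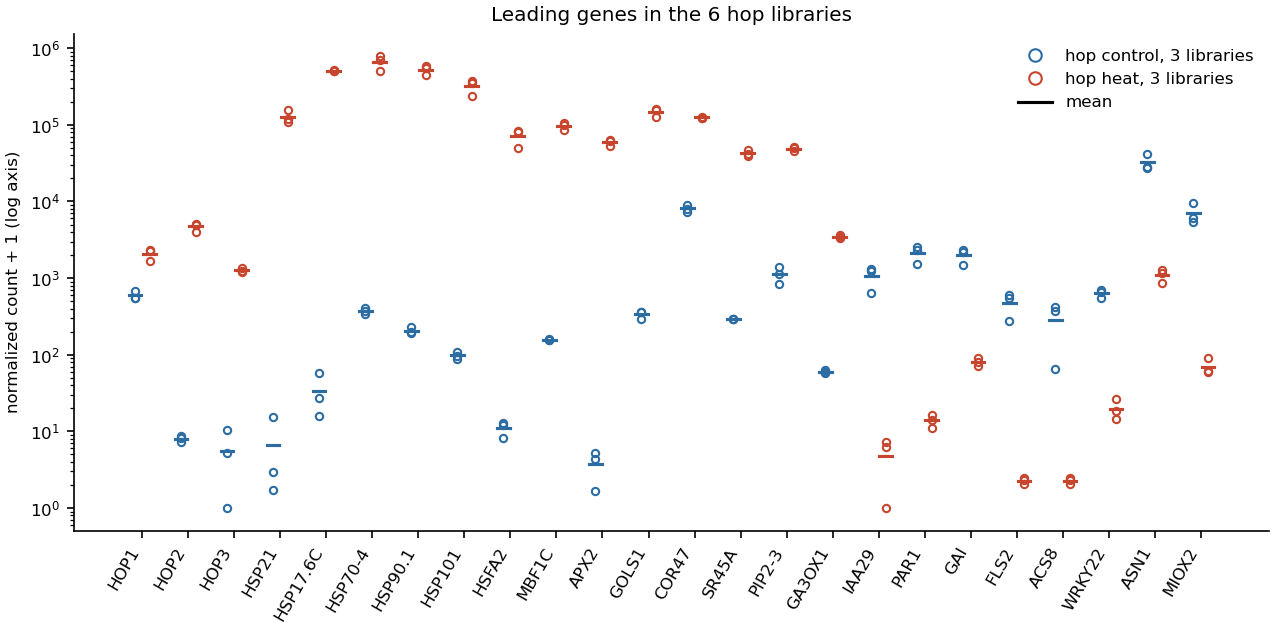
Normalized count + 1 (y axis, log scale) of 24 genes discussed in the text (x axis); circles are the 3 hop control (blue) and 3 hop heat (red) libraries and the bars are group means. Genes on the left rise and those from IAA29 on fall; the spread within a group is small beside the distance between groups except for HSP21, HOP3 and ACS8 in control.

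Heat shock factors, which turn these genes on, had 14 of 21 members higher and 4 lower, with a median of 0.84 that became -0.07 on library-size scaling. HSFA2 stood at 12, 11.3 and 7.15 in control and at 80375, 83886 and 49930.0 in heat, a change of 12.64 ± 0.42 (limma, adjusted p = 2.64e-09). HSFA7B went from 2.56, 1.41 and 1.3 to 4235, 4597 and 2792, a change of 10.45. Both had control libraries close to 0 and heat libraries far above them, lowest in replicate 3. The class B factors, which lack an activation domain, rose together in 3 cases: HSFB2B by 5.96, HSFB1 by 5.50 and HSFB2A by 3.79. HSFA3, a target of DREB2A, rose by 4.41. Among the HSFA1 genes, HSFA1E and HSFA1D rose by 3.80 and 2.67, HSFA1B fell by 0.97, and HSFA1A changed by -0.45, which did not pass the test (-1.36 on library-size scaling, limma, adjusted p = 0.00606). HSFA8 and HSFA5 fell by 2.16 and 0.95. HSFB3 fell by 1.11, a call that was lost without control replicate 3, at -0.94 (limma, adjusted p = 0.0549), without heat replicate 1, at -0.89 (limma, adjusted p = 0.0524), and in DESeq2, at -1.20 (adjusted p = 0.0508).

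Of 11 tested DREB2 factors and MBF1 co-activators, 8 were higher and 1 lower, with a median of 1.78. MBF1C, a transcriptional co-activator needed for thermotolerance, stood at 159.7, 157 and 153 in control and at 100434, 105737 and 84499 in heat, a change of 9.26 ± 0.11 (limma, adjusted p = 7.5e-18). DREB2A, which activates drought and heat genes, went from 72.6, 100.4 and 93.6 to 2675, 2848 and 3132, a change of 5.02. MBF1A rose by 1.62 and MBF1B by 0.41, which became -0.51 on library-size scaling, and DREB2B, DREB2C and DREB2E rose by 3.89, 2.74 and 5.30. DREB2D fell by 3.61, from 199.8, 181 and 212 to 10.6, 16 and 20.6. MBF1C overlaps MSH7 by 22 bases and AT3G04685 by 176 bases on the opposite strand, so the rise of MSH7 by 2.53 is uncertain. Opposite-strand overlaps of 43 to 172 bases also hold for GOLS1, DREB2A, HSP101, PAP17 and FLS2, described here and below. Longer ones hold for other genes named below, among them CYP81G1 (791 bases), CIPK13 (665), PYL7 (571), BAM3 (518), PIF7 (318) and EDS5 (213). The heat level of CYP81G1 was 0.964% of that of the overlapping MYB44, and that of EDS5 was 18.0% of that of AT4G39040, so these levels are uncertain too. Not every overlap is given.

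In the endoplasmic reticulum, genes for folding and the unfolded protein response had 22 of 36 members higher and 5 lower, with a median of 0.69 that became -0.24 on library-size scaling. BZIP28, a membrane-anchored factor that is cut free under folding stress, went from 657, 612 and 639 to 5654, 5748 and 5345, a change of 3.13 ± 0.08 (limma, adjusted p = 3.37e-14). Its related factors BZIP17 and BZIP60 rose by 1.61 and 0.61, the latter becoming -0.31 on library-size scaling. Chaperones and folding enzymes PDIL2-2, CNX1, SDF2 and P58IPK rose by 2.93, 2.43, 2.34 and 2.07. The stress sensors IRE1A and IRE1B did not pass the test, at -0.03 and -0.04 (called falls of -0.95 and -0.96 on library-size scaling), and HRD1A, a ubiquitin ligase of the degradation pathway, fell by 1.13 while HRD1B rose by 1.77.

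Protein breakdown genes moved less. Of 57 proteasome subunits 29 were higher and 8 lower, with a median of 0.27 (-0.66 on library-size scaling). RPN6, a lid subunit, went from 1540.4, 1488 and 1325 to 13411, 13129 and 11018, a change of 3.11, and RPN3B fell from 365, 348 and 337 to 91.4, 104 and 80.5. Autophagy genes were higher in 22 of 30 cases and lower in 7, with a median of 0.57 (-0.36 on library-size scaling). ATG8H, a ubiquitin-like protein of the autophagosome membrane, rose by 3.24 and ATG18A by 2.44, while ATG12B and ATG8G fell by 1.71 and 1.55.

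Protective compounds and proteins formed the next layer. Galactinol synthases make the donor for raffinose, a sugar that accumulates in heat and drought. GOLS1 stood at 292, 363 and 356 in control and at 161424, 155369 and 126237 in heat, a change of 8.77 ± 0.12 (limma, adjusted p = 5.51e-17), and GOLS2 rose by 8.21. RFS6, annotated as a probable raffinose-type galactosyltransferase, fell from 34204, 35527 and 52745 to 8617, 6724 and 9713, and RFS2 fell by 1.63. Over the 9 tested genes of this pathway 5 were higher and 2 lower, with a median of 0.48 (-0.45 on library-size scaling). Late embryogenesis abundant proteins and dehydrins, which protect cells that lose water, were higher in 16 of 21 cases and lower in 0, with a median of 1.53. COR47, a dehydrin with high control levels, went from 8076, 7381 and 8998 to 124339, 127054 and 123963, a change of 3.95, and ERD10 and LEA7 rose by 3.57 and 4.62.

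Genes that handle peroxide, with the ZAT zinc finger factors that respond to it, were higher in 23 of 32 cases and lower in 5, with a median of 0.90 (-0.02 on library-size scaling). APX2, a cytosolic ascorbate peroxidase, stood at 3.42, 4.24 and 0.650 in control and at 63607, 52849 and 60755 in heat, a change of 14.09 ± 0.37 (limma, adjusted p = 6.67e-11). ZAT7 went from 0.854, 0.707 and 0 to 295, 279 and 242, and ZAT6 from 114, 95.5 and 94.9 to 4099.8, 4365 and 2933. In both the groups lay far apart. ZAT11 was at 6.83, 4.95 and 9.75 in control and had no fragment in any heat library, which puts it at least 5.66-fold lower, and CAT1, a catalase, fell by 1.16. Glutathione S-transferases, which detoxify reactive compounds, were 18 higher and 11 lower of 48, with a median of 0.31 (-0.50 on library-size scaling). GSTU5 rose by 4.99, GSTF8 by 4.33 and GSTU19 by 3.81, and GSTU8 fell by 3.22. Of 14 mitochondrial stress markers 5 were higher and 2 lower, with a median of 0.27 (-0.64 on library-size scaling). NDB2 and AOX1A, which form a bypass of the respiratory chain, rose by 3.14 and 2.81.

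Growth hormone genes fell. Auxin, the growth hormone carried from young leaves and shoot tips, acts in part through SAUR proteins that loosen the wall and Aux/IAA proteins that repress the response. SAUR genes were lower in 44 of 68 cases (35.2% of all genes were) and higher in 10, with a median of -2.03 (-1.07 with a pseudocount of 5). SAUR23 fell from 174, 158 and 74.1 to 0, 2.90 and 2.06, and SAUR19 from 95.6, 98.3 and 79.9 to 0, 7.26 and 0. Control replicate 3 was the lowest of the controls in both, and every heat library lay below it. AT4G12410, also of the SAUR family, went the other way, from 5.12, 2.12 and 0.650 to 92.8, 103 and 105. Of 29 Aux/IAA genes 18 were lower and 3 higher, with a median of -0.65. IAA29 stood at 1225, 1313 and 639 in control and at 5.30, 0 and 6.19 in heat, a change of -8.15 ± 0.71 (limma, adjusted p = 2.81e-06), the steepest fall of all genes tested. IAA4 fell by 4.45 and IAA1 by 3.44. IAA17, IAA10 and IAA13 rose by 1.17, 1.19 and 0.36. On library-size scaling no rise of these genes was called, with IAA17 at 0.25, IAA10 at 0.27 and IAA13 at -0.56.

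Phytochrome-interacting factors (PIFs) and shade regulators couple light and temperature to elongation. They were lower in 24 of 35 cases and higher in 9, with a median of -1.42. PAR1, a small helix-loop-helix protein that holds elongation back, fell from 2543, 2292 and 1518 to 13.3, 10.2 and 15.5, a change of -7.23 ± 0.26 (limma, adjusted p = 8.44e-12). ATHB-2, a shade-induced homeodomain factor, fell from 509.8, 590.5 and 429 to 39.8, 33.4 and 39.2, and the brassinosteroid-responsive factors BEE2, BEE1 and BEE3 fell by 3.63, 3.09 and 2.51. The auxin synthesis genes YUC8 and YUC9 fell by 2.31 and 1.42. The PIF genes did not move as one. PIF7 went from 76.8, 90.5 and 109.8 to 705, 623 and 984, a change of 3.03, while PIF1 rose by 1.05 and PIF5 fell by 0.82. PIF3 rose by 0.53. On library-size scaling neither of these 2 rises was called, with PIF1 at 0.13 and PIF3 at -0.39.

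Gibberellin genes were lower in 17 of 27 cases and higher in 4, with a median of -0.90. GAI, a DELLA protein that represses growth until gibberellin removes it, fell from 2218, 2344 and 1473 to 70.2, 78.4 and 88.8, a change of -4.63 ± 0.16 (limma, adjusted p = 9.89e-13). The other DELLA genes RGL3 and RGL1 fell by 2.2 and 1.18, and RGA changed by -0.10, which did not pass the test (-1.03 on library-size scaling, limma, adjusted p = 7.28e-07). GA3OX1, which makes the active hormone, rose from 61.5, 59.4 and 57.2 to 3323, 3604 and 3388, a change of 5.83 ± 0.12 (limma, adjusted p = 1.87e-15). The enzyme before it in the pathway went the other way, since GA20OX1, GA20OX2 and GA20OX3 fell by 1.21, 2.25 and 1.86. GASA1 rose by 3.08 and GASA6 fell by 2.52.

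Ethylene genes were lower in 13 of 21 cases and higher in 5, with a median of -1.0, or -0.62 with the gene at 0 in all libraries of a group set at its bound. Enzymes of the rate-limiting step of ethylene synthesis fell and rose side by side. ACS8 went from 415, 366 and 63.7 to 1.33, 1.45 and 1.03, a change of -6.57 ± 0.56 (limma, adjusted p = 3.03e-07), with control replicate 3 low. ACS7 went from 19.6, 17.7 and 23.4 to 537, 464 and 345, a change of 4.39. ACS4 and ACS5 fell by 4.67 and 3.54, the receptor gene ERS1 fell by 2.51 and the receptor gene ETR2 rose by 1.75. Brassinosteroid genes were lower in 15 of 21 cases and higher in 1, with a median of -0.79. CYP734A1, which inactivates the hormone, fell by 2.36. Type-A response regulators, which damp cytokinin signalling, were lower in 5 of 9 cases, among them ARR9 by 2.22.

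Abscisic acid, the hormone of water stress, showed 22 of 41 genes higher and 10 lower, with a median of 0.62 (-0.22 on library-size scaling). HAI1, a phosphatase induced by it, went from 107, 74.3 and 94.9 to 1664, 2017 and 1319, a change of 4.16, and PYL7, a receptor, rose by 3.63. Enzymes that break the hormone down differed, with CYP707A4 up by 5.96, from 5.98, 7.78 and 11.7 to 614, 499 and 615, and CYP707A2 down by 3.45. Jasmonate genes were mixed, with 12 of 28 higher and 9 lower and a median of 0.27 (-0.65 on library-size scaling). JAZ10, a repressor of the pathway, rose by 3.93 while JAZ6 fell by 2.05.

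**Figure D4:**
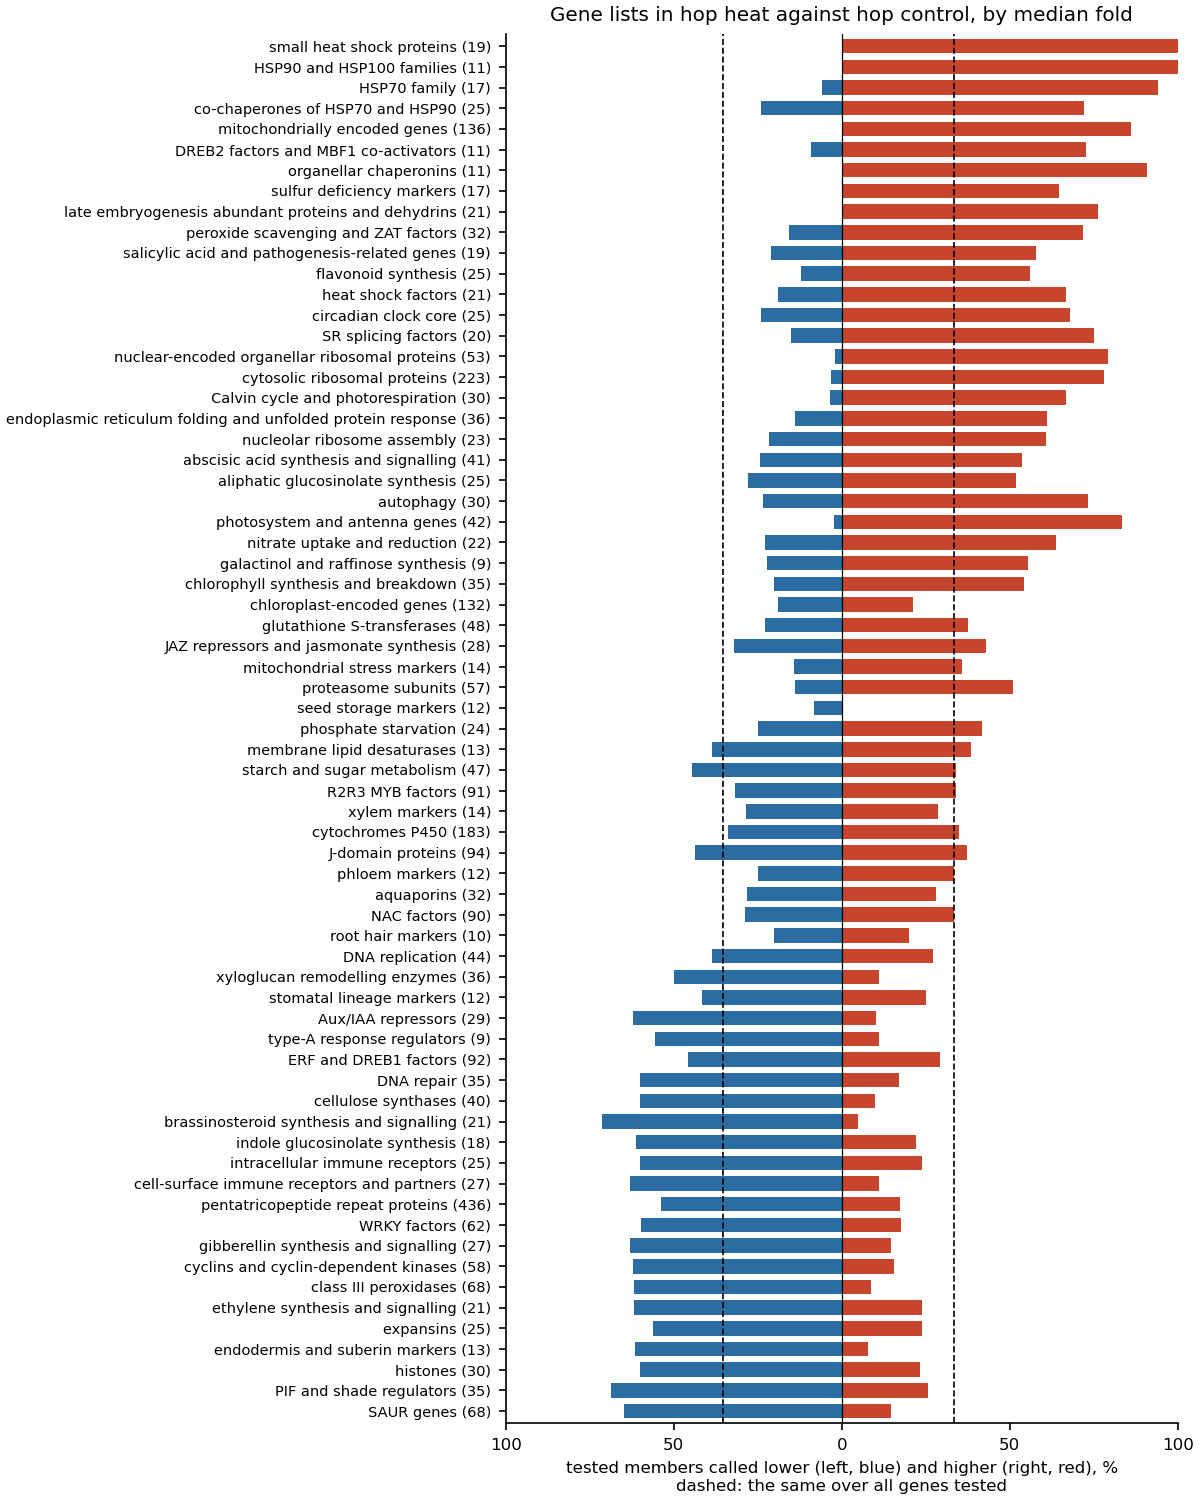
Share of the tested members of each gene list (number in brackets) that were called lower (left, blue) and higher (right, red) in hop heat against hop control, in %, with lists ordered by their median log2 fold change from the highest at the top. Dashed lines mark the same shares over all genes tested, 35.2% lower and 33.3% higher; SAUR genes stand at the bottom and small heat shock proteins at the top.

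Immune genes at the cell surface fell while salicylic acid genes were mixed. Cell-surface receptors and their partners were lower in 17 of 27 cases and higher in 3, with a median of -0.81. FLS2, the receptor of bacterial flagellin, stood at 541, 593 and 278 in control and at 1.33, 1.45 and 1.03 in heat, a change of -7.63 ± 0.28 (limma, adjusted p = 2.32e-12). The heat values are 1 fragment in each library, and no control library came near them. LYK4, of the chitin receptor complex, fell by 2.38, the kinases PBL1, MPK3 and BIK1 by 2.16, 1.48 and 1.47, and the co-receptor BAK1 changed by -0.05, which did not pass the test (a called fall of -0.98 on library-size scaling). SERK4, BIR1 and LYM2 rose by 0.79, 0.48 and 0.40, and all 3 were below 0 on library-size scaling. Intracellular receptors were lower in 15 of 25 cases and higher in 6, with a median of -0.81, and RPM1 fell from 135, 198 and 158 to 6.63, 13.1 and 14.4. Among 19 salicylic acid and pathogenesis-related genes 11 were higher and 4 lower, with a median of 0.89 (-0.005 on library-size scaling). EDS5, a salicylic acid transporter, rose by 2.39, and SAG101 and EDS1, which act together in resistance, fell by 3.00 and 1.03.

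WRKY factors, many of which act in defence, were lower in 37 of 62 cases and higher in 11, with a median of -0.83. WRKY22 fell from 697, 658 and 551 to between 13.4 and 25.2, a change of -5.05 ± 0.22 (limma, adjusted p = 1.5e-11). WRKY53 was at 21.3, 26.9 and 33.1 in control and had no fragment in any heat library, which puts it at least 21.4-fold lower, and it overlaps HMGB6 by 341 bases on the opposite strand. WRKY75 rose from 106, 94.1 and 116 to 709, 946 and 694. The other large factor families held no common direction. NAC factors were 30 higher and 26 lower of 90, R2R3 MYB factors 31 and 29 of 91 (median 0.03, or -0.87 on library-size scaling), and ERF and DREB1 factors 27 and 42 of 92. NAC13 and ATAF1 rose by 4.91 and 3.69 and NAC021 fell by 3.68. ERF053 and ERF054 rose by 4.85 and 4.75, and DREB1B, of the cold response, fell from 58.9, 69.3 and 44.2 to 1.33, 2.90 and 5.16.

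Of 25 genes of the circadian clock, 17 were higher and 6 lower, with a median of 0.82 (-0.11 on library-size scaling). The morning genes PRR9 and CCA1 went up together. CCA1 stood at 570.4, 614 and 794 in control and at 5022, 5106 and 5710.4 in heat, a change of 3.01 ± 0.11 (limma, adjusted p = 1.87e-12), and PRR9 rose from 123, 141 and 199 to 1349, 1310.3 and 1514. LHY, the partner of CCA1, rose by 0.82, which became -0.11 on library-size scaling, and LNK1 rose by 3.42. Evening genes differed among themselves: TOC1 and PRR3 fell by 1.0 and 3.19, whereas GI, LUX and ELF3 rose by 1.19, 1.25 and 1.18. On library-size scaling the calls of GI and ELF3 were lost, at 0.27 and 0.25 (limma, adjusted p = 0.133 and 0.275). The time of day of sampling is not given in the sources used here.

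Photosynthesis genes in the nucleus moved upward by small amounts. Photosystem and antenna genes were higher in 35 of 42 cases and lower in 1, with a median of 0.53 (-0.39 on library-size scaling, beside -0.91 for all genes). The range was narrow, from -0.47 for LHCB4.2 to 1.60 for PSBP2. Calvin cycle and photorespiration genes were higher in 20 of 30 cases and lower in 1, with a median of 0.69 (-0.24 on library-size scaling). RCA, the activase of Rubisco and a heat-sensitive enzyme of the leaf, went from 215086, 221399.5 and 211637 to 583416, 505841 and 485912, a change of 1.28 ± 0.13 (limma, adjusted p = 3.67e-07). FBA1 rose by 1.58 and CP12-3 fell by 2.26. In chlorophyll metabolism, with 19 of 35 genes higher and 7 lower and a median of 0.46 (-0.47 on library-size scaling), PORC rose by 1.8 and PORA fell by 2.17, although both encode the same light-dependent step.

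Genes encoded in the organelles themselves differed from one another. Mitochondrially encoded genes were higher in 117 of 136 cases and lower in 0, with a median of 3.93. ORF139B went from 3.42, 3.54 and 1.3 to 926, 1103 and 799. Chromosome 2 of Arabidopsis carries a copy of most of the mitochondrial genome, so reads of these genes and of AT2G07696, a nuclear gene annotated as mitochondrial ribosomal protein S7 that rose by 4.28, may have been split or shared. Chloroplast-encoded genes showed 28 of 132 higher and 25 lower, with a median of 0.33 (-0.59 on library-size scaling). Both are smaller shares than among all genes tested. Their summed level was 1945332, 1891984 and 1401192 in control and 3032494, 4358747 and 2070820 in heat, so the heat libraries differed widely. The small share of calls therefore does not show a weak response, and the part of this spread in it was not tested. The library kit selects polyadenylated RNA, and organelle transcripts with such tails are a special class, so these levels may differ from total organelle RNA.

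Ribosome and RNA genes are long lists with small shifts. Cytosolic ribosomal proteins were higher in 174 of 223 cases and lower in 7, with a median of 0.71 (-0.21 on library-size scaling). RPL18C went from 6163, 5114 and 5231 to 21785, 18472 and 22818, a change of 1.93, and RPS9C fell by 1.46. The telo box AAACCCTA, a promoter motif known from ribosomal protein genes, was in 20.2% of their windows (45 of 223), against 3.74% of all windows. Nuclear-encoded organellar ribosomal proteins were higher in 42 of 53 cases and lower in 1, with a median of 0.76 (-0.17 on library-size scaling). Nucleolar assembly factors were higher in 14 of 23 cases and lower in 5, with a median of 0.68 (-0.24 on library-size scaling). SR splicing factors, which choose splice sites, were higher in 15 of 20 cases and lower in 3, with a median of 0.81 (-0.12 on library-size scaling). SR45A went from 295, 289 and 296 to 46919, 41128 and 39670.3, a change of 7.17 ± 0.11 (limma, adjusted p = 7.64e-17), SR30 rose by 4.15 and SCL33 by 2.88. RS31 and RS40 fell by 0.90 and 0.61.

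Pentatricopeptide repeat proteins, which process organelle RNAs, moved against the ribosomal lists on the deposited values. Of 436 tested, 234 were lower and 76 higher, with a median of -0.82. On library-size scaling the medians were all below 0, at -1.66 for this list and -0.21 and -0.17 for cytosolic and organellar ribosomal proteins. RPF2, which sets transcript ends in mitochondria, fell from 47.0, 70.7 and 44.2 to 1.33, 0 and 1.03. AT2G01740 went from 13.7, 9.90 and 11.7 to 468, 485 and 358, and PCMP-H22 rose by 4.53.

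Cell division genes were lower. Cyclins and cyclin-dependent kinases fell in 36 of 58 cases and rose in 9, with a median of -0.91. CYCA1-1 went from 93.9, 91.9 and 63.7 to 1.33, 5.80 and 5.16, a change of -4.17 ± 0.42 (limma, adjusted p = 3.35e-07), and CYCD5-1 fell by 3.09. CDKD-1, a kinase that activates other cyclin-dependent kinases, and CDKG1, which acts on splicing, rose by 3.55 and 2.28. Histones were lower in 18 of 30 cases and higher in 7, with a median of -1.32. The H3 gene HTR2 fell by 3.77 and the H2A gene HTA2 by 2.87, while HTA13, HTA8 and HTB4 rose by 1.06, 1.02 and 0.92. On library-size scaling none of these 3 rises was called, with values of 0.14, 0.10 and -0.003. Histone mRNAs of plants have poly(A) tails, so they are captured by the kit. DNA replication genes were closer to the background, with 12 of 44 higher and 17 lower. PCNA and TSO2 rose by 2.01 and 2.22, and RPA1D fell by 3.01. DNA repair genes were lower in 21 of 35 cases and higher in 6, with a median of -0.68.

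Cell wall genes were lower in most lists. Expansins, which let walls extend, were lower in 14 of 25 cases and higher in 6, with a median of -1.07. EXPA16 went from 1342, 1499 and 1449 to 57, 55.1 and 61.9, a change of -4.60 ± 0.17 (limma, adjusted p = 2.46e-12), and EXPA4 and EXPA1 fell by 3.83 and 3.63. EXPA5 rose by 2.57. Cellulose synthases and related enzymes were lower in 24 of 40 cases, xyloglucan remodelling enzymes in 18 of 36 and class III peroxidases in 42 of 68, each with 4 to 6 members higher. XTH25 fell from 145, 131 and 112 to 2.65, 4.35 and 3.1, and XTH23 rose from 129.8, 145 and 149 to 2602, 2175 and 2202. Aquaporins, the water channels, were at 9 higher and 9 lower of 32. PIP2-3 of the plasma membrane went from 1408, 849 and 1135 to 51676, 50204 and 45126, a change of 5.46 ± 0.18 (limma, adjusted p = 2.5e-12), and the vacuolar TIP1-1 rose by 2.85. The close relative PIP2-2 rose by 2.52, and reads of this pair, which are near-identical copies beside each other on the chromosome, may have been shared.

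Metabolic genes held some of the largest single changes. ASN1, asparagine synthetase, a gene of sugar-starved tissue, fell from 28406, 27587 and 41994 to 1163, 1265 and 856, a change of -4.89 ± 0.18 (limma, adjusted p = 5.23e-12). MIOX2, an inositol oxygenase, fell from 5452, 5991 and 9668 to 88.8, 60.9 and 57.8, a change of -6.63. GAT1_2.1, a glutamine amidotransferase-like gene, CIPK13, a kinase of calcium signalling, and BHLH87, a helix-loop-helix factor, changed by -6.61, -6.41 and -5.85. BCAT2, of branched-chain amino acid breakdown, fell from 1289, 1231 and 3310.2 to 38.4, 24.7 and 28.9. Control replicate 3 was the highest control for ASN1, MIOX2 and BCAT2, and in each the highest heat library lay far below the lowest control. SUS1, a sucrose synthase, rose by 3.68 and BAM3, a starch-degrading amylase, by 3.12, within a starch and sugar list of 16 higher and 21 lower of 47 (median 0.03, or -0.89 on library-size scaling).

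Flavonoid genes were higher in 14 of 25 cases and lower in 3, with a median of 0.88 (-0.04 on library-size scaling). CHS, chalcone synthase at the entry to the pathway, rose by 2.46 and FLS1, which makes flavonols, by 3.86, whereas DFRA, of the anthocyanin branch, fell by 0.95 and PAL2, of the steps before, by 1.04. Among glucosinolate genes, those of the aliphatic branch, made from methionine, were 13 higher and 7 lower of 25, and those of the indole branch, made from tryptophan, were 4 higher and 11 lower of 18, with medians of 0.57 and -0.81 (-0.35 and -1.70 on library-size scaling). The difference between the branches was not tested. CYP79F1 of the first branch went from 49.5, 29 and 13.6 to 302, 347 and 218, and CYP79B2 of the second fell from 380.0, 654 and 609 to 91.4, 56.6 and 68.1.

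Sulfur deficiency markers were higher in 11 of 17 cases and lower in 0, with a median of 1.65. LSU2 went from 5.12, 12.7 and 1.95 to 926, 940.3 and 789.5, a change of 7.14 ± 0.39 (limma, adjusted p = 2.59e-09). APR1, APR2 and APR3, which reduce sulfate to sulfite, rose by 4.08, 3.53 and 3.19. Nitrate genes were higher in 14 of 22 cases and lower in 5, with a median of 0.48 (-0.44 on library-size scaling). NRT2.1, a root uptake transporter, rose by 3.75 from control values of 9.39, 6.36 and 3.90, and NPF7.3, which loads nitrate into the xylem, fell by 2.19. Phosphate genes were 10 higher and 6 lower of 24 (median 0.05, or -0.87 on library-size scaling), with PAP17 up by 4.82 and SPX1 by 2.63. Cytochromes P450, a family of oxidases in many pathways, were at the background with 64 higher and 62 lower of 183, among them CYP81G1 up by 4.01 and CYP96A9 down by 4.31. Desaturases of membrane lipids were 5 higher and 5 lower of 13 (median 0.05, or -0.88 on library-size scaling). The temperature-sensitive FAD8 rose by 1.68, and ADS1 fell from 2385, 2438 and 357 to 35.8, 69.7 and 25.8, with control replicate 3 again apart.

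The direction of tissue markers differed between lists and with the scaling. On the deposited values the 12 shoot markers all changed upward, by 0.22 to 1.28. Summed over 12 shoot markers the level was 2036925 to 2473993 in control and 3002142 to 3776795 in heat, with 8 of 12 genes higher and 0 lower. As a share of all fragments these markers went the other way, from 9.73% ± 0.433 (SD, n = 3) to 7.61% ± 0.461, and their median of 0.69 became -0.24 on library-size scaling, with 1 higher and 6 lower. Summed over 16 root markers it was 78027 to 94748 in control and 62439 to 80364 in heat, with 3 higher and 5 lower, and these ranges overlap. Their share of all fragments fell from 0.369% ± 0.0166 (SD, n = 3) to 0.164% ± 0.00836, and on library-size scaling 3 were higher and 11 lower. Within the root list WOX5, of the quiescent centre of the root tip, rose from 6.83, 10.6 and 7.80 to 86.1, 100.1 and 79.5, and AUX1, an auxin importer, fell from 4204, 4224 and 3557 to 458, 479 and 517. Endodermis and suberin markers were lower in 8 of 13 cases and higher in 1, with a median of -1.21, and their sum was 4798 to 7435 in control and 2691 to 4887 in heat. Root hair, stomatal, xylem and phloem markers had 2, 3, 4 and 4 members higher and 2, 5, 4 and 3 lower, of 10, 12, 14 and 12. Their part in the results above was not tested.

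Seed storage genes, which a 7-day-old seedling should have used up, were summed at 181 to 682 in control and 205 to 569.7 in heat, with 0 of 12 higher and 1 lower and a median of 0.18 (-0.50 on library-size scaling).

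Some genes went from no fragments to many or the reverse. At 0 in all 3 control libraries were 351 of the tested genes, of which 185 were called higher. At 0 in all heat libraries were 457, of which 257 were called lower. A gene at 0 throughout the control group can only be called higher, and at 0 throughout the heat group only lower. Such a gene passes the filter only through libraries of other groups, so these counts are not support for a direction. AT5G53680, which encodes a protein with an RNA recognition motif, reached 3569.7, 3478 and 2726 in heat, at least 4420.5-fold higher than the floor of 3 fragments over the control group. AT1G48720 and its neighbour AT1G48725 reached means at least 844-fold and 346-fold over that floor. AT3G21320, a hydroxyproline-rich protein gene, was at 91.4, 132 and 39.0 in control and at 0 in heat, at least 68.8-fold lower. It overlaps AT3G21310 by 1512 bases on the opposite strand. Other expressed genes, chosen for the smallest change on the deposited values, stayed level on that scale. TPP2, a peptidase, stood at 3591, 4118 and 4760.2 in control and at 4094, 3855 and 4461 in heat, and DEGP7 at 1839, 1909 and 2100.0 and at 1925, 2005 and 1921. Their log2 changes were 0.00, and both groups overlap. On library-size scaling both were called falls, TPP2 at -0.92 (limma, adjusted p = 0.000142) and DEGP7 at -0.92 (limma, adjusted p = 1.24e-05).

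The shares of genes called in each direction differed by the level before heat. Genes were sorted by their mean in the wt control libraries, which do not enter the hop contrast. Among the 214 genes with a mean of 10000 or more, 56.1% were higher and 21.5% lower, and among the 5668 genes between 10 and 100 the shares were 26% and 41.7%. Rises of at least 5 were found in 0 of the 214 and in 97 of the 5668. Below 1, 31.4% of 1357 genes were higher and 3.83% lower, but a gene so low passes the filter only where another group is high, so these shares are not support for a direction. Genes with 1 annotated exon were higher in 26.1% and lower in 41.5% of 3454 cases, and 2.09% of them rose by at least 5. With 6 to 10 exons 37.4% were higher, 35.5% lower and 0.550% higher by at least 5. The median control value was 48.0 for genes with 1 exon and 260.8 for those with 6 to 10, so exon number and level go together. Among small RNA classes, miRNA precursor genes were higher in 31 of 87 cases (35.6%) and lower in 9. The snoRNA genes were higher in 35 of 111 cases (31.5%) and lower in 3. Both shares of higher genes lay near the 33.3% of all genes tested, so they show no particular rise of these classes. Lower calls were rarer than among all genes tested, of which 35.2% were lower. The miRNA precursor and snoRNA genes are short and the kit selects polyadenylated RNA, so these counts describe precursors or host transcripts.

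**Figure D5:**
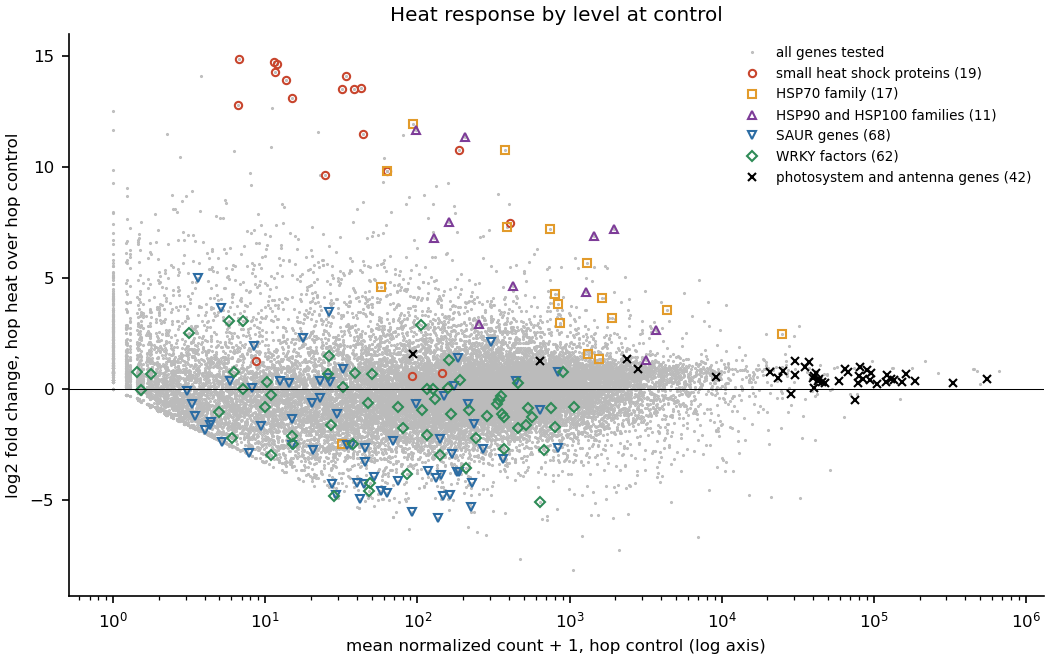
Log2 fold change of hop heat over hop control (y axis) against the mean normalized count + 1 in hop control (x axis, log scale); each grey dot is 1 of the 23827 genes tested and coloured marks are 6 gene lists with their number of members. Small heat shock proteins lie up to 14.84 from low control levels, HSP90 and HSP100 members lie between 1.3 and 11.65, photosystem genes lie near 0 at high levels, and most SAUR genes lie below 0.

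Where hop seedlings differed from wt was read from the test of the difference of the 2 heat responses. At an adjusted p under 0.05, limma called 12 of 23827 genes (0.0504%), with 3 higher in hop and 9 lower, and 2276 genes had an unadjusted p under 0.05. That count ran from 1 without wt control replicate 3 to 94 without hop heat replicate 3, and it moved by over 1.5 times in 10 of the 12 fits that leave out 1 library, the exceptions being hop control replicate 3 and wt control replicate 1. HOP2 itself led, with a heat response larger by 5.34 ± 0.17 in hop (limma, adjusted p = 1.27e-10) from the lower start given above. The differences of HOP1 and HOP3, 0.88 and -2.01, did not pass the test (limma, adjusted p = 0.149 and 0.571). PCMP-E88, a pentatricopeptide repeat protein, fell by 2.02 in hop, from a mean of 37.4 ± 3.09 to 8.51 ± 1.61 (SD, n = 3), whereas in wt it went from 35.0 ± 3.48 to 0 in all heat libraries. Its difference had an adjusted p of 0.0092 (limma). SHM7, a serine hydroxymethyltransferase listed with the sulfur markers, rose by 2.42 in hop and by 3.61 in wt, from control means of 309 ± 47.3 and 367 ± 42.5 (SD, n = 3). NIA2, a nitrate reductase, fell by 0.45 in hop and rose by 0.35 in wt, with means of 35055 ± 352 and 25641 ± 1179 in hop control and heat and 34683 ± 1944 and 44041 ± 792 in wt. Leaving out each of the 12 libraries in turn, HOP2 kept its call in all 12 fits and PCMP-E88 in 10, while SHM7 kept it in 4 and NIA2 in 2. No member of the small heat shock protein, HSP70, HSP90 and HSP100 or heat shock factor lists was among the 12, which does not show that their responses were alike.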

How the data were processed

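Poly(A)-selected RNA of 12 libraries of 7-day-old seedlings (4 groups of 3) was prepared for sequencing with the TrueSeq Stranded mRNA kit (per the labels' protocols). The submitters' processing notes name 3 tools, TopHat2 2.1.0, HTSeq, and DESeq2 in version 1.1.14; the sources used here give no genome build. Values are normalized counts deposited by the authors, a signal obtained by dividing gene counts by size factors; their deposited fold changes and p-values were not used. At a tolerance of 0.01, 100% of the values came out as whole fragments once multiplied back, which gave depths of 28663907 to 38722218 fragments in the hop libraries; 3 fragments over a group are worth 0.737 in control and 1.27 in heat, for counting error only.

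A gene was tested if at least 3 of the 12 libraries had a value of 1 or more. For normalized values the planned test was limma 3.58.1 (R 4.3.3, trend and robust). It was fitted to log2(value + 1) with 4 group means over all 12 libraries. It gave the contrast of hop heat with hop control and the difference of the heat responses of hop and wt, with Benjamini-Hochberg adjustment over all 23827 genes and a threshold of 0.05. On simulated data of that size 72 of 100 genes changed 2-fold and 94 of 100 changed 4-fold were recovered, with 12 false calls among 23827 genes. In that simulation only these genes changed, none of them with few counts and as many up as down. In the data 68.5% of the genes tested were called, so recovery and false calls there may differ. The count tests on the recovered fragments, edgeR 4.0.16 (quasi-likelihood, TMM) and DESeq2 1.42.0, called 16359 and 15721 genes. Other alternatives were pseudocounts, filters, library-size scaling, the 6 hop libraries alone, a replicate block and leaving out each library.

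Members and gene lists were chosen with earlier results of these data known, and the lists of J-domain, pentatricopeptide repeat, P450 and organellar ribosomal proteins were added later still. Named genes are the HOP genes, the 10 most abundant genes of each group, the 10 largest rises and falls, the genes at 0 in 1 group, the steadiest genes, the genes called by the difference of responses and up to 3 members each way of each list; some are left out for length, and further list members were named after their values were seen. Of the gene IDs, 32548 (99.1%) matched the RefSeq TAIR10.1 annotation, which gave names, exons, overlaps and, with its genome (read with pysam 0.24.0), the promoter windows; 285 had no entry. Coordinates are TAIR10.1 and were not compared with the authors' build.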

Additional observations from a re-analysis of the deposited data

Results flagged for a closer look

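The heat response of 12 genes differed between hop and wt seedlings at an adjusted p under 0.05 in the test of the difference itself (limma; 3 libraries in each of 4 groups). The differences, hop minus wt on the log2 scale, were 5.34 for HOP2, 3.14 for PCMP-E88 and 1.34 for AT4G20350. They were -1.35 for AT1G61300, -1.35 for GDPD1, -1.19 for SHM7, -1.0 for AT5G15270, -1.3 for AT2G40980, -0.86 for CSN5B, -0.83 for HAM1, -3.29 for BHLH114 and -0.8 for NIA2. The value of PCMP-E88 rests on wt heat libraries at 0, and that of BHLH114 on hop heat libraries at 0, so neither fitted size is a bound. AT1G61300, a gene annotated among disease resistance proteins, changed by -1.65 in hop and -0.30 in wt. GDPD1 rose by 0.59 in hop and by 1.94 in wt, and AT4G20350 rose by 5.23 and 3.90. Without 1 library, CSN5B, HAM1 and AT5G15270 kept their call in 1 of 12 fits each, BHLH114 in 2, AT2G40980 in 4, AT4G20350 in 5, GDPD1 in 7 and AT1G61300 in 11. The call of BHLH114 was also lost in edgeR (adjusted p = 0.0935), on library-size scaling (limma, adjusted p = 0.0982) and with a pseudocount of 5 (limma, adjusted p = 0.106). The causes were not tested.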

How the results depend on the processing

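The number of genes called in hop seedlings, 16326 in the limma fit, lay between 15395 and 17874 under every alternative listed in the methods, including 16688 with a replicate block in limma and 16681 with it in edgeR, and between 15315 and 15853 without 1 of the 6 hop libraries. Library size alone moved the split to 3125 higher and 14749 lower. Same-numbered hop libraries showed no clear pairing, with correlations of their deviations of 0.14, -0.06 and 0.25 beside -0.34 to 0.23 for other pairs. For heat replicates 1 and 3 the same-numbered control was still the closest, and the wt libraries were not checked. Whether libraries of 1 number share variation is therefore not settled. The block is given only here. The number of genes whose response differed from wt was far less stable than the heat response: 12 in limma (3 higher, 9 lower), 176 in DESeq2 (47 and 129), 34 in edgeR (31 lower), 175 in edgeR with a replicate block (34 and 141), 34 in limma with the block (7 and 27), 6 with library size alone (4 lower), and 1 to 94 without 1 library (1 to 12 higher, 0 to 82 lower). The cause was not tested.

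Library-size scaling took the changes of several named genes below 0: LHY -0.11, PIF3 -0.39, BZIP60 -0.31, SERK4 -0.13, LYM2 -0.52, BIR1 -0.44, IAA13 -0.56, MBF1B -0.51, HSP15.4 -0.21, HSP21.7 -0.31 and HTB4 -0.003. Of 69 list medians 29 changed sign with it and 0 under other pseudocounts. Values not called in the limma fit crossed 0 as well. With library-size scaling TPP2 went to -0.92 and DEGP7 to -0.92, both called falls there. In DESeq2 TPP2 went to -0.007 and DEGP7 to -0.0, and in edgeR TPP2 went to -0.10 and DEGP7 to -0.10, with and without the block. Without 1 library TPP2 lay between -0.10 and 0.103, DEGP7 between -0.038 and 0.058 and IRE1A between -0.079 and 0.031. In the same fits IRE1B lay between -0.123 and 0.001 and BAK1 between -0.092 and 0.015. Genes at 0 in a group move list medians when set to their bounds, at most from -1.0 to -0.62 for ethylene and from -2.03 to -1.69 for SAUR genes. With a pseudocount of 5 the SAUR median was -1.07. Depth limits genes near 3 fragments a group.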
